A study of Mus musculus with 18 samples.

Results

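The genes Rara and Rarg, which encode the retinoic acid receptors alpha and gamma, were described by the DNA methylation of the CpGs in and around them in sorted mouse mammary epithelium. The members were all CpGs with at least 5 reads inside 1 window per gene on build mm9. The Rara window ran from 98775 to 98840 kb of chromosome 11 and the Rarg window from 102060 to 102095 kb of chromosome 15. In at least 1 library, 332 CpGs met this rule, 219 at Rara and 113 at Rarg, of 1476285 CpGs in the whole series. The Rara window was chosen by the measured levels of a 1000 bp tile, at 98787001 to 98788000, that was already known to be higher in pregnant than in virgin stem libraries. The difference between pregnant and virgin stem libraries is therefore given here as a description, with no test.

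The series holds 18 libraries of multiplexed reduced representation bisulfite sequencing, in which genomic DNA cut by MspI at CCGG is treated with bisulfite, so that unmethylated cytosines read as thymines. The DNA came from mammary epithelium of C57BL/6 female mice, sorted into stem cells, luminal progenitor cells and mature luminal cells. Each cell type had 3 pregnant libraries (day 10, day 16 and day 19 of pregnancy), 1 library of retired breeders and 2 virgin libraries (week 3 and week 9 of age). No allele, agent or transgene is named for any group, and an age is given for the virgins only.

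There is 1 library per cell type and stage, so the stages stand in as replicates of a reproductive state. Whether a library is 1 animal or a pool, and whether libraries share animals, is not labelled. A p-value therefore concerns these libraries only and does not measure the spread between animals. In the tile model the spread was also moderated across all tiles and held at no less than counting error. Total reads ran from 17513287 in retired mature cells to 117922522 in week 9 virgin mature cells. The 3 pregnant stem libraries were shallower than both virgin stem libraries, with a median of 14 to 29 reads per listed CpG in the pregnant and 37 and 44 in the virgin ones. The labelled cell types could hardly be checked from methylation. Of 12 marker genes of basal, luminal, blood, vessel and connective tissue cells, only the promoter of the luminal factor Gata3 could be measured, and it lay at 0 to 0.578% in all 18 libraries. Each library averages the DNA of all its sorted cells, so a change within cells and a change in the mix of cells cannot be told apart.

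Retinoic acid, made from vitamin A, enters the nucleus and binds the retinoic acid receptors, which pair with retinoid X receptors on DNA. Without the hormone such a pair holds corepressors at its target genes, and with it the pair recruits coactivators. Retinoids are known to slow the growth of mammary epithelial cells and to favour their differentiation. Methylation of CpGs is usually low at active promoters rich in CpGs and high in most of the remaining genome.

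The promoters show where the near absence of methylation lies. They were placed on mm9 by matching the spacing of the CpGs in the RefSeq sequences (GRCm38.p6) to the CpG positions in the files, since no mm9 genome was at hand. The 250 bases before each start are given 5′ to 3′ in the direction of the gene, and capitals mark the CpGs that the files list.
Rara promoter: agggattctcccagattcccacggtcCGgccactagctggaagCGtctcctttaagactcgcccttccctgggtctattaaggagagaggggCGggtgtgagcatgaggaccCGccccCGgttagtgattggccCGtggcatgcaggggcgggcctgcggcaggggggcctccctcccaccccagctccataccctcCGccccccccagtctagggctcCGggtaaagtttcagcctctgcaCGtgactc
Rarg promoter: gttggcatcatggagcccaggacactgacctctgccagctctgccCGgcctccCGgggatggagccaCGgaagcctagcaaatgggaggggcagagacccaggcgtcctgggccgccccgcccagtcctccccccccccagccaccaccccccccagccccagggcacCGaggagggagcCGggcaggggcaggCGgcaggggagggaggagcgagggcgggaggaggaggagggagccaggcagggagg

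The Rara stretch is on the plus strand of chromosome 11 and ends just before the placed start at 98799032. The placed promoter window, 98798782 to 98799081, holds 13 CpGs listed in the files, and all 13 matched. The Rarg stretch is on the minus strand of chromosome 15 and ends just before the placed start at 102087953. Its window, 102087904 to 102088203, holds 6 listed CpGs, and all 6 matched. Of the CpGs in the printed letters, 9 of 13 at Rara and 6 of 11 at Rarg are listed. RefSeq gives 4 starts for Rara and 2 for Rarg, of which 2 and 1 could be placed. The remaining starts were not used, and distances below are from the starts named here.

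The letters CCGG, the MspI site, occur 3 times in each printed stretch, and 47.1% of the 32851 promoter stretches of the same length in the table hold them at least once. The hexamer AGGTCA, a half-site letter sequence bound by many nuclear receptors, was searched on both strands and occurs once in the Rarg stretch and not in the Rara stretch, while 14.0% of all stretches hold it. The related hexamer GGTTCA occurs in neither, and 8.85% of all stretches hold it. These are matches of letters in these windows only.

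Both windows were low in methylation beside the series. Over CpGs that reached 5 reads in every library, the mean level was 15.5% for the 120 such CpGs at Rara and 10.8% for the 35 at Rarg, against 50.4% for all 711980 CpGs of the series. Levels under 20% were found at 75.8% of these Rara CpGs and 85.7% of these Rarg CpGs, against 39.7% in the series. Levels above 80% were found at 3 of these Rara CpGs (2.5%) and 1 of these Rarg CpGs (2.86%), against 43.7% in the series. These counts leave out CpGs that fell short of 5 reads in some library. Left out were all 11 Rara CpGs from 25 to 18 kb upstream of the start, with means of 81.1% to 98.0%. Of the 21 Rarg CpGs from 16 to 26 kb downstream, with a median of 75.9%, only 3 were counted. At the edge of the rule, values with exactly 5 reads averaged 20.3% (145 values) and values with 4 reads, which were left out, averaged 22.5% (141 values). A library held between 219 members (retired mature cells) and 330 members (week 9 virgin progenitor cells). The 16 tiles that could be tested held 135 of the 332 members, and the other 197 are described by position and level alone.

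The level followed position within the Rara window. Segment limits were chosen after the values were seen. From 25 to 18 kb upstream of the start, the 11 CpGs had mean levels of 81.1% to 98.0%. From 16 to 9 kb upstream, the 23 CpGs lay in between, with a median of 33.9% and a range of 3.70% to 86.7%. From 5 kb upstream to 1 kb downstream, the 49 CpGs had a median of 0.0911% and no mean above 6.03%, and 21 of them had no methylated read at 5 or more reads in any library. From 1 to 10 kb downstream, 12 CpGs had means of 0 to 57.6%. From 10 to 27 kb downstream, the 92 CpGs had a median of 0.160%, and 36 of them had no methylated read. From 29 to 37 kb downstream, the 32 CpGs had a median of 65.7%.

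**Figure D1:**
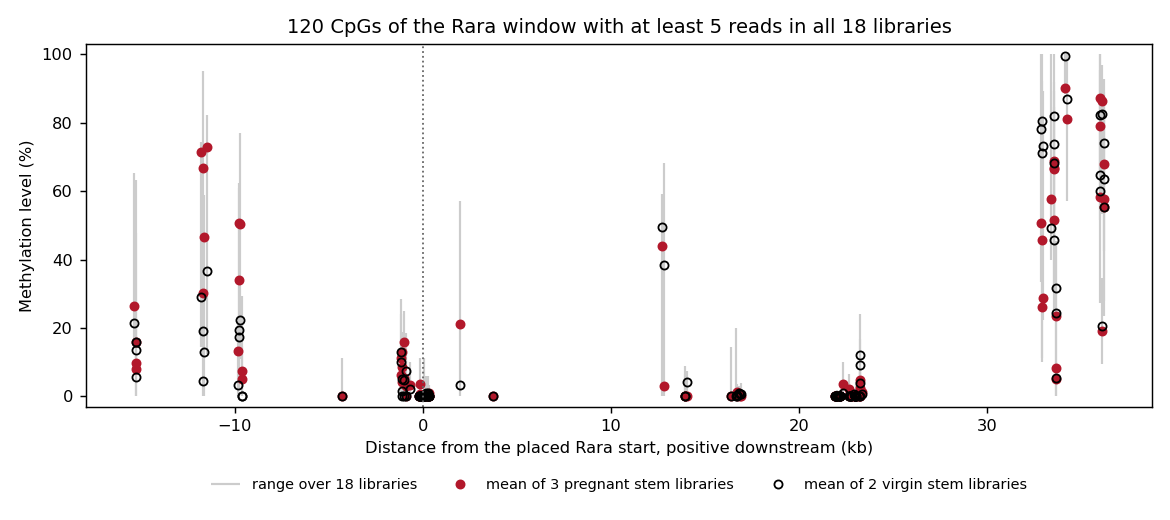
Methylation level (%) of the 120 CpGs of the Rara window that reached 5 reads in each of the 18 libraries, against distance from the placed start in kb (dotted line). Filled points are means of 3 pregnant stem libraries, open points means of 2 virgin stem libraries, and grey lines the range over all 18 libraries. Most points from the start to 27 kb downstream lie near 0, with the highest there at 12695 and 12807 bp, and the filled points stand above the open ones 11463 to 11770 bp upstream.

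The tile for which the Rara window was chosen held 5 CpGs with enough reads in all libraries, 11463 to 11770 bp upstream of the placed start. Its level was 52.0%, 63.1% and 50.3% in day 10, day 16 and day 19 pregnant stem cells, against 17.1% and 13.7% in week 3 and week 9 virgin stem cells. The means were 55.1% ± 6.96 (SD, n = 3) in pregnant and 15.4% ± 2.44 (SD, n = 2) in virgin stem libraries, 39.8 points apart. All 3 pregnant libraries lay above both virgin ones, and the tile was chosen for this rise. Summed over the 5 CpGs, the reads numbered 173, 179 and 169 in the pregnant and 310 and 293 in the virgin stem libraries. The exact 95% (Clopper-Pearson) intervals ran from 42.5% to 70.2% over the pregnant and from 9.90% to 21.8% over the virgin ones. A read that covers several CpGs was counted at each, and the intervals take these counts as independent. They can thus be too narrow even for counting error, and they cover no other spread.

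The retired stem library, which is outside the contrast that chose the tile, stood at 48.8% (exact 95% interval 40.8% to 56.8%, 160 reads). That is just below the lowest pregnant stem library and well above the higher virgin one. With 1 library there is no test of this value. In the other cell types the tile was lower at every pregnant stage. Progenitor libraries stood at 21.97%, 34.9% and 15.4% at pregnancy days 10, 16 and 19, at 45.7% in retired breeders, and at 25.8% and 30.8% in the virgin weeks 3 and 9. Mature libraries stood at 30.0%, 31.3% and 14.0% at pregnancy days 10, 16 and 19, at 25.3% in retired breeders, and at 25.7% and 34.1% in the virgin weeks 3 and 9. In both luminal cell types the pregnant and virgin values overlapped.

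The 5 CpGs make up the tile that was chosen for its rise, so their order in stem cells is part of that choice. All pregnant stem values lay above all virgin stem values at 5 of 5 CpGs. In progenitor cells all pregnant values lay above all virgin ones at 1 of 5 CpGs and below them at 2 of 5, and in mature cells at 0 of 5 in either direction. The CpG with the widest gap between group means, at 98787324, averaged 66.6% in pregnant and 19.2% in virgin stem libraries. The CpG at 98787341 was the lowest of the 5, with 30.3% in pregnant and 4.398% in virgin stem libraries.

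The pregnancy difference of this tile in luminal cells, and its differences between cell types, were tested across all 77064 tiles of the series with the quasi-binomial model. Pregnant minus virgin was -4.23 points in progenitor cells (adjusted p = 1.00 with this model, Benjamini-Hochberg) and -4.85 points in mature cells (adjusted p = 0.9495 with this model). Retired minus virgin, averaged over both luminal types, was 6.35 points, with 1 retired library per type. This average joins shifts in opposite directions. The retired level was 45.7% against a virgin mean of 28.3% in progenitor cells, and 25.3% against 29.9% in mature cells. Stem minus progenitor was 11.7 points (adjusted p = 0.788) and stem minus mature 14.1 points (adjusted p = 0.780) with the same model over all stages. By stage, stem minus progenitor was -8.72 and -17.2 points at the virgin weeks 3 and 9, then 30.1, 28.2 and 34.9 points at pregnancy days 10, 16 and 19, and 3.07 points in retired breeders. The virgin and pregnant gaps, and both stem comparisons over all stages, contain the stem values for which the tile was chosen. The model over all stages takes the gap as the same at each stage, while these gaps changed sign. Its p-values therefore do not decide whether stem cells differ from the other cell types here. In retired breeders the exact 95% intervals of stem (40.8% to 56.8%) and progenitor cells (34.6% to 57.1%) overlapped. That of mature cells, 16.7% to 35.5%, lay below the stem interval, with 1 library per cell type and no test.

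**Figure D2:**
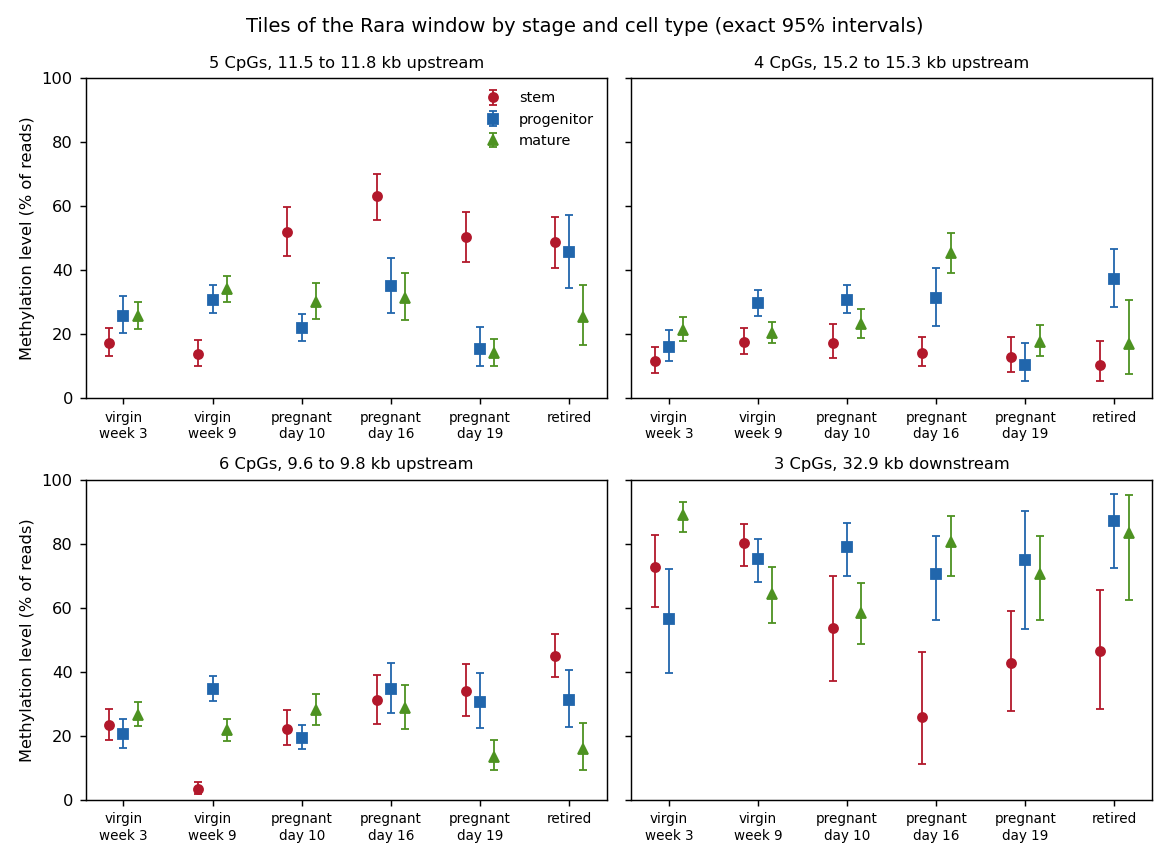
Methylation level (% of reads) of 4 tiles of the Rara window by stage, from virgin to pregnant to retired, in stem, progenitor and mature cells, with 1 point per library and exact 95% intervals. Top left is the tile for which the window was chosen, where the pregnant stem points stand at 50.3% to 63.1%, above the virgin stem points at 13.7% and 17.1%. Top right and bottom left are its neighbours, and bottom right is the tile with the widest range.

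The neighbouring tiles did not share this pattern in full. On the far side, the tile 15222 to 15350 bp upstream of Rara (98783001 to 98784000, 4 CpGs) stood at 17.3%, 14.2% and 12.9% at pregnancy days 10, 16 and 19 and at 11.6% and 17.6% in the virgin weeks 3 and 9 in stem cells, so the groups overlapped. In retired breeders it was at 10.5%. In that tile stem cells averaged 14.0% ± 2.95 (SD, n = 6), against 25.9% ± 10.4 in progenitor and 24.1% ± 10.6 in mature cells (SD, n = 6 each). The differences of -11.9 and -10.1 points were past an unadjusted p of 0.05 but not past adjustment (adjusted p = 0.268 and 0.257 with the quasi-binomial model). On the near side, the tile 9603 to 9825 bp upstream (98789001 to 98790000, 6 CpGs) stood at 22.2%, 31.1% and 34.0% at pregnancy days 10, 16 and 19, against 23.3% and 3.30% in the virgin weeks 3 and 9, in stem cells. Retired stem cells were highest of all 18 libraries at 45.0%, and the week 9 virgin stem library was lowest of all 18. The difference of 15.8 points between pregnant and virgin stem libraries was 5.86 points without the week 9 and 25.8 points without the week 3 virgin library.

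The widest range of any tested Rara tile, 63.2 points, was found 32885 to 32909 bp downstream of the start (98831001 to 98832000). In stem cells this tile was lower in pregnant than in virgin libraries, and it was not called. It stood at 53.8%, 25.9% and 42.9% at pregnancy days 10, 16 and 19, against 72.7% and 80.4% in the virgin weeks 3 and 9, and the groups did not overlap, as in 26.1% of all tiles. Retired stem cells were at 46.7%. Pregnant stem libraries averaged 40.9% ± 14.1 (SD, n = 3) and virgin ones 76.6% ± 5.42 (SD, n = 2), a gap of -35.7 points. The tile rests on 3 CpGs. Summed over these, it had only 27 to 42 reads in a pregnant and 66 and 153 in a virgin stem library. The 3 CpGs had equal numbers of reads in every stem library and lie close together. The same reads were thus probably counted at each CpG, so the separate reads are fewer than these sums. Progenitor libraries were at 56.4% to 87.2% and mature ones at 58.6% to 89.1%. Over the 6 stages stem minus progenitor was -20.2 points and stem minus mature -20.7 points, neither past an unadjusted p of 0.05.

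The next tile, 32978 to 33664 bp downstream (98832001 to 98833000, 9 CpGs), stood at 40.7%, 46.8% and 28.8% in pregnant stem cells and at 46.7% and 55.0% in virgin ones, and the highest pregnant library lay between the 2 virgin ones. The last tested Rara tile, 35992 to 36207 bp downstream with 8 CpGs, ranged from 48.7% to 74.2% over the libraries, again with overlapping stem groups.

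The tile across the Rara start was nearly free of methylation in all 3 cell types, while the tiles just upstream reached 7.57% and 11.9% in stem libraries. The tile across the start, with 19 CpGs, ran from 0 to 0.927% over the 18 libraries. In the 7 libraries with no methylated read there, a count of 0 allows a level of up to 0.269% at the deepest and 1.22% at the shallowest. Such limits take the counts at all CpGs as independent, so they can be too low. The tile from 116 to 997 bp upstream, with 11 CpGs, ran from 0 to 7.57%, and stood at 1.06%, 4.59% and 7.57% in pregnant stem cells, against 1.00% and 1.19% in virgin stem cells. The tile from 1080 to 1175 bp upstream, with 5 CpGs, reached 11.9% in day 10 pregnant stem cells. Its stem levels averaged 6.91% over 6 stages, against 2.43% in progenitor cells and 4.18% in mature cells (adjusted p = 0.277 and 0.294 with the quasi-binomial model). The 4 tiles from 16409 to 23325 bp downstream held 40 CpGs and reached at most 3.56%, in the week 9 virgin stem library.

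Rarg was low in methylation around its start and over much of the gene body. From 1 kb upstream to 2 kb downstream of its placed start, the 33 CpGs had a median of 0.280%. The highest mean, 28.6%, rests on a CpG with 5 or more reads in only 2 libraries, 1 of them at 0. From 7 to 15 kb downstream, the 52 CpGs had a median of 0 and no mean above 8.78%, and 30 of them had no methylated read at 5 or more reads in any library. Between these segments, 2 CpGs, 4953 and 5059 bp downstream, had means of 65.9% and 72.3%. From 16 to 26 kb downstream, the 21 CpGs had a median of 75.9%. The 5 CpGs beyond 1 kb upstream had means of 12.2% to 20.9%.

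**Figure D3:**
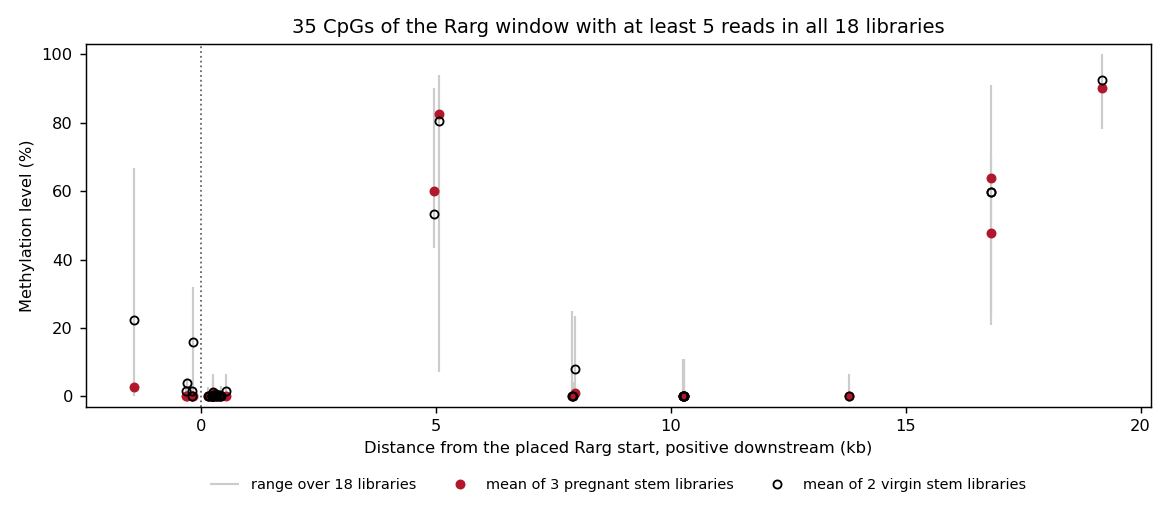
Methylation level (%) of the 35 CpGs of the Rarg window that reached 5 reads in each of the 18 libraries, against distance from the placed start in kb (dotted line). Filled points are means of 3 pregnant stem libraries, open points means of 2 virgin stem libraries, and grey lines the range over all 18 libraries. Most CpGs near the start lie close to 0, except 1 open point at 16.0% 182 bp upstream, and the 2 CpGs about 5 kb downstream average 65.9% and 72.3% over all libraries.

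Only 3 Rarg tiles could be tested. The tile just inside the gene, 140 to 521 bp downstream of the start (102087001 to 102088000, 16 CpGs), ran from 0 to 0.795%. The tile 10255 to 10280 bp downstream (102077001 to 102078000, 4 CpGs) had the widest range, from 0 to 8.11%, with its highest level in week 9 virgin mature cells and 12 libraries at 0. It had as few as 24 reads summed over its CpGs in a library, where a count of 0 allows up to 12.5% if these are independent. Its 4 CpGs lie so close that a read can cover all of them, so the true limit is higher. The tile 182 to 330 bp upstream (102088001 to 102089000, 5 CpGs), partly inside the printed promoter letters, had no methylated read in day 10, day 16 or day 19 pregnant stem cells, against 1.84% and 6.597% in week 3 and week 9 virgin stem cells. A count of 0 allows up to 2.03%, 3.41% and 2.56% in these pregnant libraries, and more where a read covers several CpGs. For each of these pregnant libraries alone, a difference from the week 3 virgin level was therefore not detectable at this depth. Over the 6 stages this tile averaged 1.41% in stem, 0.0680% in progenitor and 0.262% in mature cells (adjusted p = 0.236 and 0.279 for stem minus each, quasi-binomial model). Without the week 9 library the stem mean was 0.368%.

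Across the 16 tested tiles, 13 at Rara and 3 at Rarg, a tile counted as called at a change of 10 points or more with an adjusted p below 0.05. For pregnancy in stem cells the 1 member called was the tile for which the Rara window was chosen, so its call follows from that choice and nothing is read from it. In that comparison 0.158% of all 77064 tiles were called (122 tiles, 0.0363% higher and 0.122% lower in pregnancy). With single libraries left out, that count ran from 0, for example without the day 10 pregnant stem library, to 1245, reached when the week 3 or the week 9 virgin mature library was left out. It ran from 0 to 420 under the other ways of processing. The call of the chosen tile ended under 5 of 8 alternative ways of processing, and when any of 10 of the 18 libraries was left out. Those were the week 9 virgin stem library, the 3 pregnant stem libraries, 5 progenitor libraries (both virgin and all pregnant) and the day 16 pregnant mature library. The difference itself kept to between 35.8 and 42.2 points. It was 40.3 points in the 4-column files alone and 40.3 points with reads thinned to equal depth.

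In the 7 other comparisons no member tile was called with the quasi-binomial model, nor with limma. For pregnancy, 0% of all tiles were called in progenitor and 0% in mature cells, and 0 of the 16 members had an unadjusted p under 0.05 in either, against 3.79% and 5.11% of all tiles. For retirement in the luminal types 0% were called, and 0 members had such a p, against 4.61% of all tiles (limma called 46 tiles of the series here). That retirement comparison holds 1 retired library per luminal type, which adds no spread of its own to the fit. Between cell types the called share was 0% for stem minus progenitor, 0.0013% for stem minus mature and 0% for progenitor minus mature. Of the 16 members, 4, 5 and 0 had an unadjusted p under 0.05 in these 3 comparisons, against 9.36%, 11.1% and 5.93% of all tiles. Week 9 minus week 3 in virgins gave 0% called, with 1 member under 0.05, against 6.22% of all tiles. The median member difference was between -0.163 and 1.05 points in these 7 comparisons, and the median over all tiles between -0.157 and 0.00264 points.

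Tiles whose pregnant and virgin libraries did not overlap were also counted. In progenitor cells 4 of 16 members did not overlap, all lower in pregnancy by 0.222 to 2.19 points, where 16.1% of all tiles did not overlap. In mature cells the count was 1 of 16, lower by 0.572 points, where the share of all tiles was 15.3%. In stem cells it was 4 of 16, where the share was 26.1%, and this count includes the tile used for the choice.

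**Figure D4:**
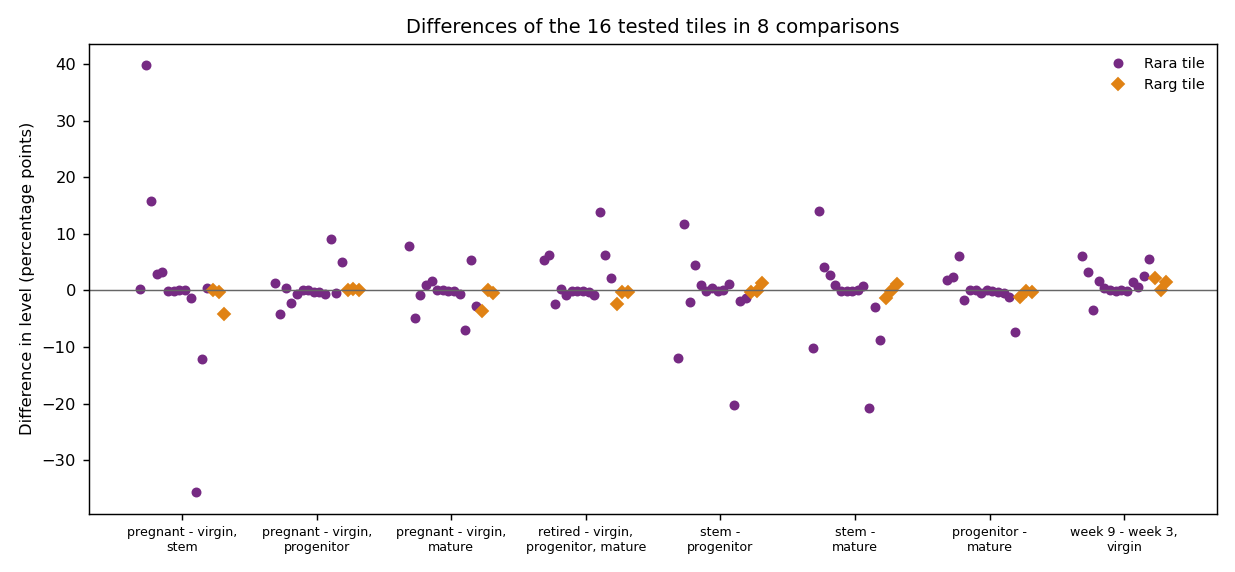
Difference in methylation level (percentage points) of the 16 tested tiles, 13 at Rara (circles) and 3 at Rarg (diamonds), in each of the 8 comparisons, with tiles in order of position within each column. The widest differences are those of pregnant minus virgin stem cells, 39.8 and -35.7 points, both at Rara, and the Rarg tiles stay within 4.22 points of 0.

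Mean levels over each whole window overlapped between pregnant and virgin libraries in all 3 cell types. The mean level of the shared Rara CpGs was 15.4% ± 0.583 (SD, n = 3) in pregnant and 14.7% ± 1.85 (SD, n = 2) in virgin stem libraries, or 0.718 points more. In progenitor cells it was 14.9% ± 1.25 in pregnant and 15.1% ± 1.81 in virgin libraries (exact permutation p = 0.900), and in mature cells 16.1% ± 1.91 in pregnant and 15.5% ± 1.13 in virgin libraries (exact permutation p = 0.900). For Rarg the means were 9.98% ± 0.274 in pregnant and 11.5% ± 2.73 in virgin stem libraries. They were 10.2% ± 1.73 in pregnant and 11.3% ± 0.286 in virgin progenitor libraries (exact permutation p = 0.6), and 11.5% ± 1.36 in pregnant and 11.1% ± 0.460 in virgin mature libraries (exact permutation p = 0.700). These groups of 3 and 2 cannot give a p below 0.1. Between cell types over 6 stages, exact sign flips gave p from 0.250 to 0.906, where the smallest possible is 0.0312. Over all 10 tests the adjusted p was 0.906.

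Tiles outside the window with the pattern most like that of the Rara tile were ranked by Pearson's r over the 18 libraries, among 23461 tiles with a range of at least 20 points. The likest lay on chromosome 2 at 131387001 to 131388000 (17 CpGs, r = 0.958), with 44.6% in pregnant and 17.7% in virgin stem libraries. Next came chromosome 13 at 40836001 to 40837000 (8 CpGs, r = 0.895), with 59.9% in pregnant and 16.6% in virgin stem libraries. The further ones were on chromosome 6 at 50841001 to 50842000 (r = 0.882), chromosome 13 at 112770001 to 112771000 (r = 0.868) and chromosome 16 at 91408001 to 91409000 (r = 0.867). Among 215 placed promoters with such a range, the likest were those of Tbx1 (r = 0.754), Kcne4 (r = 0.714), Spag16 (r = 0.676), Pola1 (r = 0.669) and Sox30 (r = 0.617). Within the Rara window, the near-side neighbour had r = 0.592 and the tile 32885 to 32909 bp downstream r = -0.688. The libraries share their depths and stages, so these values describe likeness and carry no test.

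The genes of the retinoid pathway, Rara and Rarg among them, were followed by their placed promoters. Of 25 genes listed, 18 were in the sequence table and 9 could be placed and tested. None of the 9 was called in any of the 8 comparisons, nor was any of the 5610 tested promoters (0%, quasi-binomial model). With limma none of the 9 was called either, while 12 of all promoters were called for retirement and 0 in the other comparisons. Outside stem pregnancy, Rarg was the only 1 of the 9 with an unadjusted p under 0.05, in stem minus progenitor, stem minus mature and week 9 minus week 3, where 520, 580 and 531 of all 5610 promoters had one. Their levels had a median of 0.277%, and the median over all tested promoters was 0.180%. Among the receptors, Rara stood at 0 to 1.81%, Rxra, a dimer partner, at 0 to 0.396%, and Rxrb, another dimer partner, at 0 to 6.25%. The Rarg promoter stood at 12.7% in week 9 virgin stem cells and 0.725% in week 9 virgin mature cells, and had no methylated read in the other 16 libraries. It was measured on only 3 CpGs, and its level in that stem library came mostly from the 1 at 102088135. The stem minus progenitor difference of the Rarg promoter was 2.12 points (adjusted p = 0.194 with the quasi-binomial model).

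The remaining promoters of the list were also low, and 93.7% of all 5610 tested promoters had a level below 5%. Aldh1a2, which makes retinoic acid, reached 1.74%, and Dhrs3, which turns retinal back to retinol, 3.51%. Rbp4, which carries retinol in blood, reached 1.23%. The corepressor Ncor1 reached 0.735% and the coregulator Nrip1 0.911%. The third receptor, Rarb, and the enzymes of breakdown, Cyp26a1, Cyp26b1 and Cyp26c1, could not be placed and have no value.

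**Figure D5:**
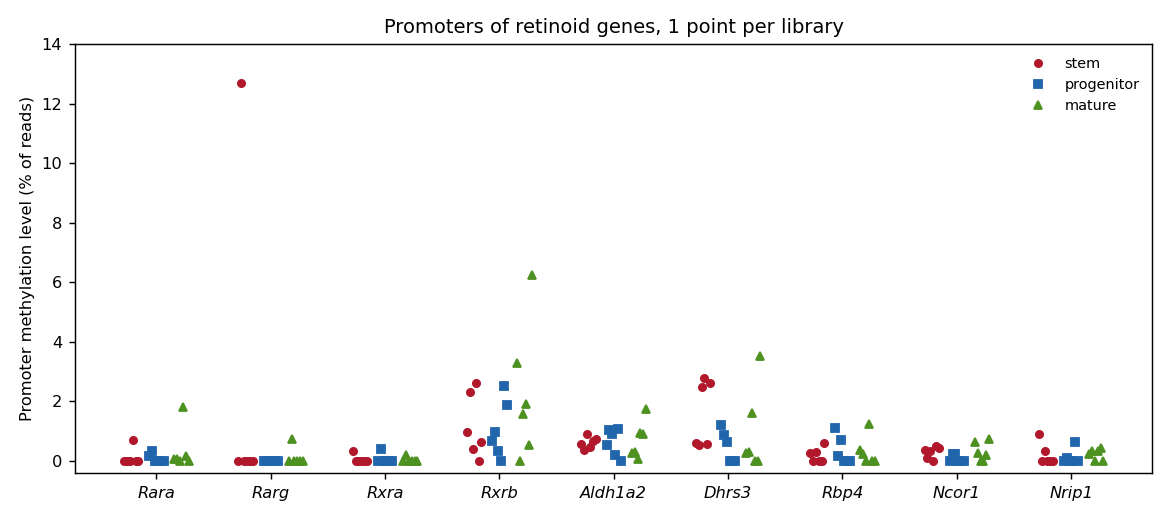
Promoter methylation level (% of reads) of 9 retinoid genes, with 1 point per library, coloured by cell type and in stage order from week 3 virgin to retired within each colour. All points lie at or below 6.25%, except the week 9 virgin stem library at Rarg with 12.7%.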

How the data were processed

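Libraries were mRRBS of MspI-digested DNA, per the labels' protocols, on build mm9, per the submitters' processing notes. The authors deposited for each CpG the methylated and total reads. In 7 of 18 files (all of day 19, all retired, and the day 16 progenitor) they also deposited a strand and a score, which equals 1000 times the methylated share within 0.5 and was not used further. The sources used here name no aligner, caller or duplicate handling. The members, gene lists and named tiles were chosen with earlier results of these data known.

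Reads at the 711980 CpGs that reached 5 reads in every library were added up over 1000 bp tiles, and the 77064 tiles holding 3 or more of them (median 208 reads a library) were tested. Each tile was fitted by quasi-binomial logistic regression (Python 3.11.15, numpy 2.4.6, scipy 1.17.1) with dispersion moderated as in limma 3.58.1, over all 18 libraries, with 9 groups of cell type and state, or cell type plus stage, and Benjamini-Hochberg adjustment over all tiles. The test was tried on simulated data. It held close to its level where extra spread scaled as the model assumes. Where the spread between libraries did not shrink with depth, most comparisons gave too many small unadjusted p-values, week 9 minus week 3 most of all, so shares under an unadjusted 0.05 are read only beside those of all tiles. Window means were compared by exact permutation or sign flips, two-sided. A promoter was placed where at least 5 listed CpGs matched its spacing with at most 1 unmatched, no rival reached 60% of the matches, and, added after the data were seen, a promoter among 5 neighbours on a side lay at the same distance as in RefSeq within 100 bp. Of 32851 promoters 7625 passed. A count of 0 was taken to allow 3 reads. Tile reads are sums over CpGs, so a read covering several CpGs counts at each. The exact intervals and the limits take these counts as independent, so the intervals can be too narrow and the limits too low. Named were the tile of the rule, its neighbours, called tiles and the widest-range tile per window.

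Alternatives were 10 reads, 500 bp tiles, any CpG with 5 reads in a library, limma on log2 ratios, CpGs above the 99th percentile of coverage removed, no stage term, 20 points, pooled reads and each library left out. Files of 4 columns alone, thinning to the shallowest library, and placement without the neighbour check were chosen after seeing the data.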

Additional observations from a re-analysis of the deposited data

How the results depend on the processing

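Of 647 alternative values over 40 results, 587 stayed as reported. They kept their count, kept their direction and side of the threshold, or moved by less than the replicate spread. Some could not cross the threshold, since exact permutation tests of 3 pregnant against 2 virgin window means cannot go below p = 0.1. The count of retinoid promoters called stayed at 0 in all 85, and the count of member tiles called stayed the same in 193 of 208. The exceptions were all in the stem pregnancy comparison, where the count was 0 with 10 reads, 500 bp tiles, limma, 4-column files and thinned reads, and between 0 and 1 with each library left out. The cause was not tested.

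The remaining changes concern differences that passed no test as reported. For the tile of the Rara rule, pregnant minus virgin in progenitor cells became 1.08 points with thinned reads and lay between -9.64 and 0.124 points with each library left out, and in mature cells between -9.05 and 0.706. Its progenitor minus mature difference became -4.04 points in 4-column files and lay between -1.24 and 4.44 without each library. The Rara window mean became, with 10 reads, 3.87 points for stem pregnancy, 1.09 for stem minus progenitor and 0.628 for stem minus mature. With any CpG of 5 reads it became 0.340 for stem minus progenitor. For progenitor pregnancy it became 0.148 with pooled reads, 0.6001 in 4-column files and 0.578 with thinned reads, for mature pregnancy -0.367 with thinned reads, and for stem minus progenitor 0.0307 in 4-column files. Without each library it lay between -0.588 and 2.02 for stem pregnancy, -1.43 and 1.13 for progenitor pregnancy, -0.357 and 1.55 for mature pregnancy, -0.903 and 0.0849 for progenitor minus mature, and -0.593 and 0.179 for stem minus progenitor.

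The Rarg window mean became 0.754 for stem pregnancy with any CpG of 5 reads, and 0.832 for progenitor pregnancy with 10 reads. For mature pregnancy it became -0.111 with pooled reads, -0.307 in 4-column files and -1.22 with thinned reads. In 4-column files progenitor minus mature became 0.678 and stem minus mature 1.37, while thinned reads gave stem minus mature -1.73 with an exact sign-flip p of 0.0312, the smallest possible. Without each library it lay between -3.47 and 0.396 for stem pregnancy, -0.191 and 1.16 for mature pregnancy, and -0.299 and 0.638 for stem minus progenitor. No paired analysis was possible because the labels give no replicate numbers for pregnant and virgin libraries. Cell types were compared within stages, and without the stage term the counts of member tiles called stayed at 0.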

Other observations

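The single CpGs given here were picked after their values were seen. At 98811839 and 98812045, 12807 and 13013 bp downstream of the placed Rara start, the week 9 virgin stem library stood at 68.3% (63 reads) and 92.9% (14 reads). The next highest library was at 25.5% and 25%. At 98811727, 12695 bp downstream, the 6 stem libraries stood at 33.3% to 59.2% and the mature ones at 2.44% to 33.3%. At 102088135, 182 bp upstream of the placed Rarg start, the week 9 virgin stem library stood at 31.9% (47 reads), and the other 17 libraries had no methylated read. This CpG lies inside a tested tile and inside the tested Rarg promoter.

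Of the 155 members measured in all libraries, the week 9 virgin stem library lay at least 20 points above all other libraries at 2. Over all 711980 CpGs it did so at 0.109%, against 0.0171% for the week 3 virgin stem library and 0.553% for the retired mature library, which had the fewest reads. The CpG at 102082894, 5059 bp downstream of the Rarg start, stood at 7.14% in retired progenitor cells (14 reads) and at 60% to 94.0% in the other libraries.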
